A study of Rattus norvegicus with 8 samples.

Results

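Follistatin, PMEPA1, the bone morphogenetic proteins BMP7 and BMP4, the activin subunit encoded by Inhba, the ligands TGF-beta 1, 2 and 3 and the receptor gene Tgfbr1 were followed across fast and slow cells of a rat glioma line. These 9 genes of the activin, BMP and TGF-beta pathways were chosen by name, and every probe set annotated to one of them alone was taken. All 9 genes had a probe set, 12 in total of the 8799 on the array, and the array's single-symbol probe sets covered 4737 genes. RNA of C6 cells, an established rat glioma line with glial features, had been hybridised to 8 Affymetrix arrays in a study labelled as one of migration. The groups, with 2 arrays each, were C6 fast and C6 slow cells, and C6SPGFP fast and C6SPGFP slow cells. The labels explain neither the name C6SPGFP nor how cells were sorted by speed, and give no agent, no time and no clone number. They do not say that replicates were separate cultures, so the spread behind each p-value is that between arrays and may be technical.

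Ligands of the TGF-beta superfamily are secreted proteins that bring receptor serine/threonine kinases together, and the activated receptors phosphorylate SMAD proteins, which enter the nucleus and act on target genes. Activins and the TGF-betas signal mainly through SMAD2 and SMAD3, and the BMPs through SMAD1, SMAD5 and SMAD9. In the nervous system BMPs favour astroglial fates, and in malignant glioma TGF-beta is known for its part in invasion and in the suppression of immune responses. Secreted binders such as follistatin hold ligands away from their receptors, and PMEPA1 is a membrane protein that is induced by TGF-beta and limits signalling through SMAD2 and SMAD3.

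Values below are quantile-normalised signals in arbitrary units. Changes are on the log2 scale of signal plus 8, with the standard error (SE), from limma with Benjamini-Hochberg adjustment over 6684 probe sets whose mean signal was at least 8. A change is said to have passed at an adjusted p under 0.05. The pseudocount draws changes of low signals towards 0. No detection calls were used, and nothing shows whether a signal under about the pseudocount exceeds background. The bulk RNA cannot tell fewer cells with a transcript from less of it per cell. The deposited 2% trimmed mean was 100.1 to 105.8 on 7 arrays and 500.5 on C6SPGFP fast replicate 1. Across probe sets of log2 values, Pearson's r was 0.923 to 0.939 between C6 fast and C6 slow arrays, and 0.960 to 0.971 between C6SPGFP fast and slow arrays. Vim, the intermediate filament of C6 cells, averaged 2658 ± 91.3 (SD, n = 2) in C6 fast and 2881 ± 284 in C6 slow cells, and of 3716 ± 162 in C6SPGFP fast and 3179 ± 109 in C6SPGFP slow cells. Gfap had no probe set of its own.

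Follistatin and PMEPA1, both brakes on the pathway, changed with speed, and so did Bmp7. Fst and Bmp7 fell in fast C6 cells and rose in fast C6SPGFP cells, though the call of the Bmp7 rise was lost without any single C6SPGFP array. Pmepa1 fell in fast C6 cells to a small part of its level elsewhere and did not pass in C6SPGFP. The number of arrays, 2 a group, limits the precision of each value.

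Fst encodes follistatin, which binds activins tightly and some BMPs. Its probe set rc_AA858520_at had signals of 350.2 and 413 in C6 fast, against 1292 and 1301 in C6 slow cells. In C6SPGFP the signals were 724 and 768 in fast, against 122 and 157 in slow cells. The order of the groups was thus C6 slow, C6SPGFP fast, C6 fast and C6SPGFP slow, from high to low. Arrays of groups next to each other did not overlap, and how many of all probe sets separate so was not computed. The change was -1.75 ± 0.16 in C6 (SE, adjusted p = 0.000344), a fold of 3.36 on signal plus 8. It was 2.36 ± 0.16 in C6SPGFP (adjusted p = 0.000316), a fold of 5.14. The difference of the changes, C6SPGFP minus C6, was 4.11 ± 0.23 (adjusted p = 5.66e-05).

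The other Fst probe set, rc_AA858520_g_at, was designed on the same expressed sequence going by its name, so it is no independent measure. It had signals of 245 and 330.3 in C6 fast against 1253 and 1072 in C6 slow cells, and of 634 and 636 in C6SPGFP fast against 128 and 139 in C6SPGFP slow cells. Its order of groups was the same. It changed by -2.0 ± 0.18 in C6 (SE, adjusted p = 0.000273) and by 2.18 ± 0.18 in C6SPGFP (adjusted p = 0.000761).

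Between the sets, Fst differed in opposite directions at the 2 speeds. In slow cells it was lower in C6SPGFP than in C6, with changes of -3.15 ± 0.16 (SE, adjusted p = 5.75e-05) and -3.04 ± 0.18 (adjusted p = 9.03e-05) for its 2 probe sets. In fast cells it was higher in C6SPGFP, with changes of 0.96 ± 0.16 (adjusted p = 0.00514) and 1.14 ± 0.18 (adjusted p = 0.00319). These comparisons use the same arrays as those of fast with slow cells and are no separate evidence.

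**Figure D1:**
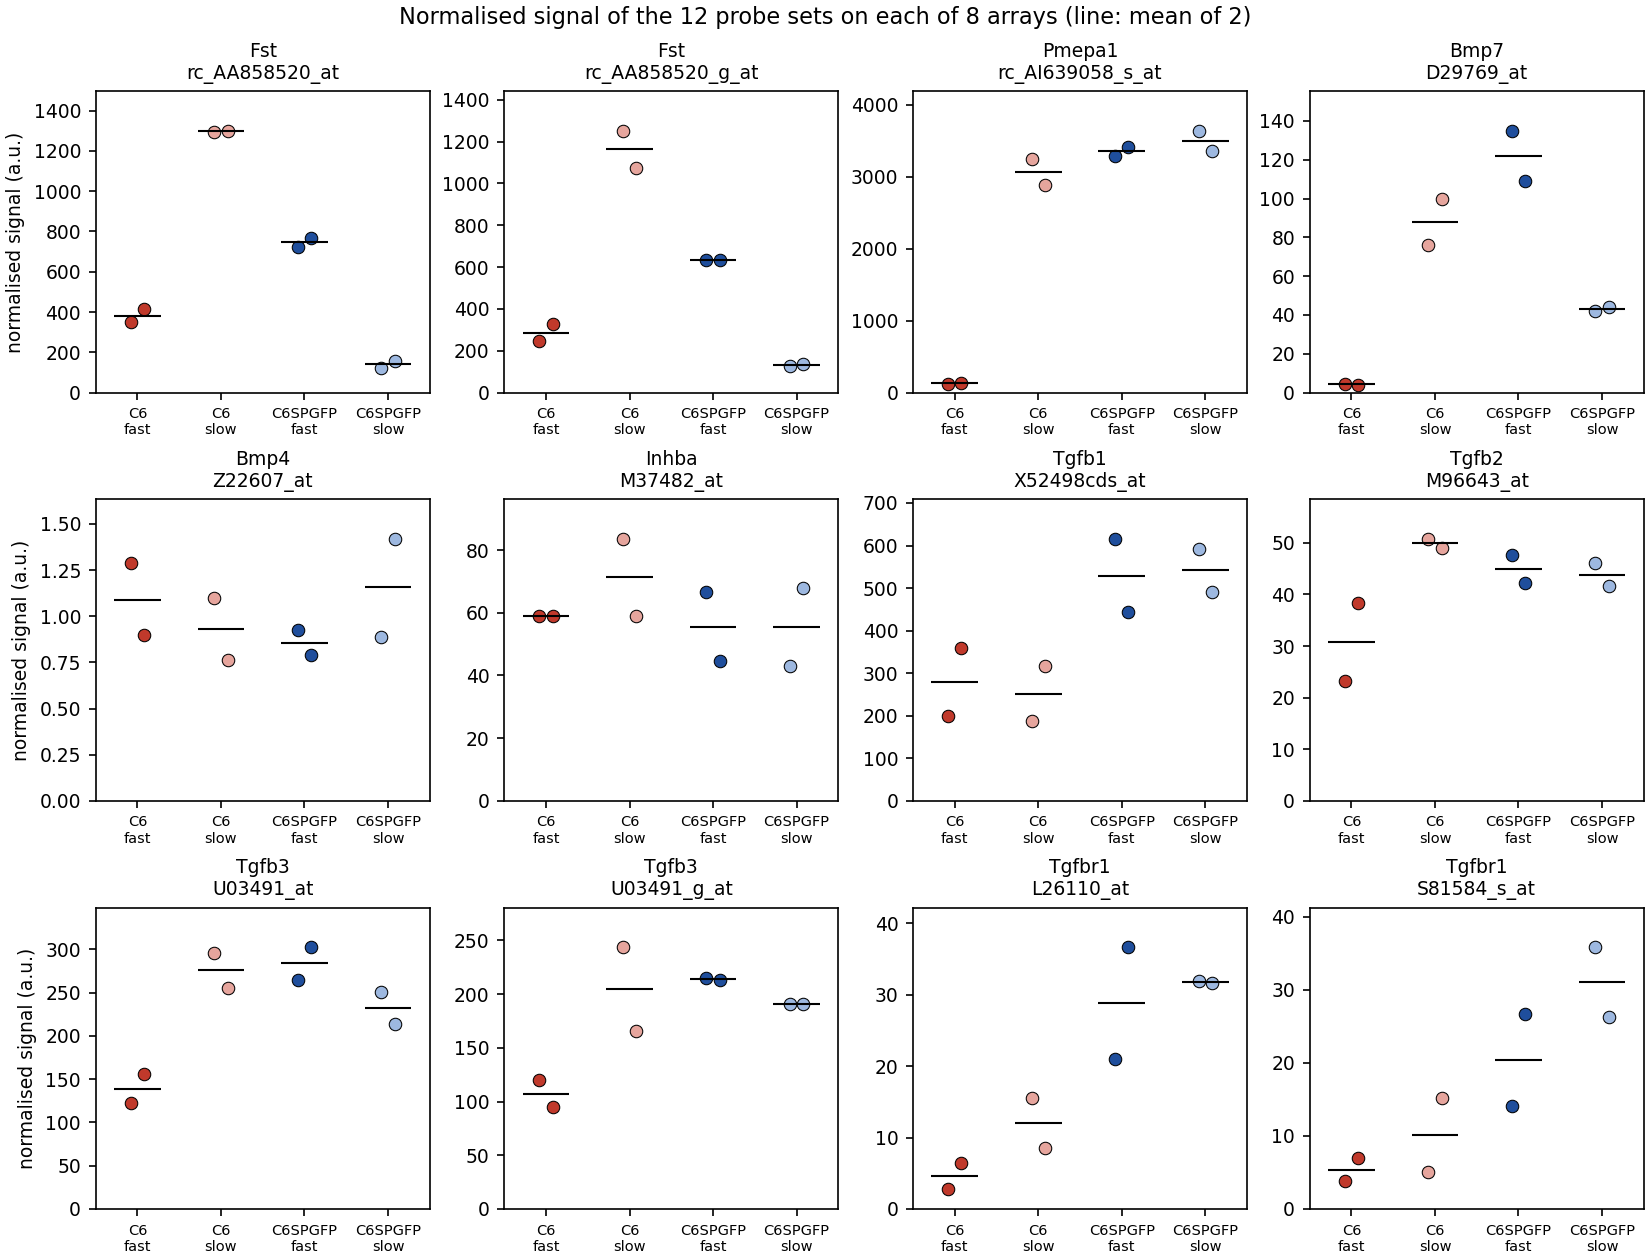
Normalised signal (arbitrary units, each panel with its own axis from 0) of the 12 probe sets on each of the 8 arrays. Points are arrays and lines the means of 2. Fst is at 350.2 and 413 in C6 fast and at 122 and 157 in C6SPGFP slow cells, below the other groups, while Pmepa1 is low in C6 fast cells alone, at 121 and 139.

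Pmepa1 was measured by 1 probe set, rc_AI639058_s_at. It had signals of 121 and 139 in C6 fast, against 3247 and 2886 in C6 slow cells. In C6SPGFP the signals were 3287 and 3416 in fast, against 3640.0 and 3357 in slow cells. The C6 fast arrays stood far below the other 6, whose values lay close together and overlapped between C6SPGFP fast and slow. The change in C6 was -4.48 ± 0.12 (SE, adjusted p = 2.72e-07), a fold of 22.3 and the 5th largest decrease of all probe sets tested there. In C6SPGFP it was -0.06 ± 0.12 (adjusted p = 0.915), with a 95% confidence interval from -0.33 to 0.21. The difference of the changes was 4.42 ± 0.16 (adjusted p = 3.76e-06). Pmepa1 was higher in C6SPGFP fast than in C6 fast cells by 4.61 ± 0.12 (adjusted p = 1.42e-07), and the slow cells of the sets differed by 0.19 ± 0.12 (adjusted p = 0.401). With the arrays only scaled to a common trimmed mean, that last value was -0.11.

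The sequence before the start of Pmepa1 is shown with that of Tgfb3, the other gene that fell in fast C6 cells and had an entry in RefSeq's rat promoter sequences (GRCr8). Of the 9 genes, 7 had an entry, and Fst and Bmp7 had none. Capitals mark CAGAC, a core bound by SMAD3 and SMAD4, and the GC box GGGCGG, on either strand (GTCTG and CCGCCC). The lines give the 250 bases before the annotated start, 5′ to 3′ on the gene's strand, at chr3:182478650-182478899 (minus strand) for Pmepa1 and chr6:111456947-111457196 (minus strand) for Tgfb3.
Pmepa1: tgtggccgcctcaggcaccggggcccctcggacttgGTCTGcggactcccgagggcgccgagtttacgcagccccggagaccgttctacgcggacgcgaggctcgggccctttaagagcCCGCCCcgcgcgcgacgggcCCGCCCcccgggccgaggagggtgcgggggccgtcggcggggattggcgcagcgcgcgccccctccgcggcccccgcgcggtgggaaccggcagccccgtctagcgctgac
Tgfb3: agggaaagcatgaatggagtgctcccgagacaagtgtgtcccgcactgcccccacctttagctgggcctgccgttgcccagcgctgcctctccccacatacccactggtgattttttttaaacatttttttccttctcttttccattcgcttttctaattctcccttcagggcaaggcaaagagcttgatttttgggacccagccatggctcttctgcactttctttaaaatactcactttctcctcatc
The Pmepa1 stretch held 1 match to CAGAC and 2 to GGGCGG, and its content of G and C was 78.4%, against a median of 51.2% over 33469 promoters. The Tgfb3 stretch held neither and had 48.8% G and C. A match to CAGAC was found in 42.9% of all promoters, to GGGCGG in 30.5% and to the palindrome GTCTAGAC in 0.173%, and neither of these genes held the last. These matches describe letters and no binding.

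The BMP ligands were represented by Bmp7 and Bmp4, of which Bmp7 alone could be tested. Bmp7, a ligand that acts on astroglial differentiation, had signals of 4.53 and 4 in C6 fast, against 76 and 99.6 in C6 slow cells. In C6SPGFP it had 135 and 109 in fast, against 42.3 and 44.2 in slow cells. No arrays of fast and slow cells overlapped in either set, and the direction was opposite, as for Fst. Fast and slow arrays were apart for 45.1% of all probe sets tested in C6 and 44.1% in C6SPGFP. The change was -2.95 ± 0.22 in C6 (SE, adjusted p = 0.000118) and 1.34 ± 0.22 in C6SPGFP (adjusted p = 0.0236), and the difference of the changes was 4.29 ± 0.31 (adjusted p = 0.000167).

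The size of the Bmp7 change depended on the pseudocount, since the C6 fast signals lay below it. The change in C6 was -4.07 with a pseudocount of 1 and -1.72 with 32, and it passed with each. The rise in C6SPGFP ended in each run without 1 of the 4 C6SPGFP arrays, with adjusted p-values of 0.167 and 0.127 without slow replicates 2 and 1 and of 0.179 and 0.111 without fast replicates 1 and 2. The rise also lost its call with no signal filter (1.34, adjusted p = 0.0595), and it held under 11 of 17 alternatives. Between the sets, Bmp7 was higher in C6SPGFP fast than in C6 fast cells by 3.40 ± 0.22 (SE, adjusted p = 2.74e-05). In slow cells it was lower in C6SPGFP, with a change of -0.89 ± 0.22 (adjusted p = 0.048), a call that held under 3 of 17 alternatives and ended without any 1 of the 8 arrays (adjusted p from 0.0589 to 0.203). Bmp4, another BMP ligand, had signals from 0.763 to 1.42 over the 8 arrays, under the filter, and was not tested.

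Inhba, which encodes the subunit of activin A that follistatin binds, did not pass in any comparison. It had signals of 58.8 and 58.9 in C6 fast against 83.6 and 58.9 in C6 slow cells, and of 66.5 and 44.5 in C6SPGFP fast against 42.9 and 67.8 in C6SPGFP slow cells. The C6 slow arrays reached down to the C6 fast ones, and the C6SPGFP groups overlapped. The change was -0.23 ± 0.28 in C6 (adjusted p = 0.743; 95% confidence interval -0.87 to 0.41) and 0.01 ± 0.28 in C6SPGFP (adjusted p = 0.998; -0.63 to 0.65).

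Of the TGF-beta ligands, Tgfb3 fell in fast C6 cells by 1 of its 2 probe sets, and Tgfb1 and Tgfb2 did not pass. Tgfb3 had signals of 122 and 156 in C6 fast, against 296 and 256 in C6 slow cells, on probe set U03491_at. In C6SPGFP it had 265 and 303 in fast, against 251 and 214 in slow cells. The C6 fast arrays were the lowest of the 8, and the other 3 groups lay close together. The change in C6 was -0.96 ± 0.19 (SE, adjusted p = 0.0185), and in C6SPGFP it was 0.28 ± 0.19 (adjusted p = 0.695). The difference of the changes was 1.24 ± 0.27 (adjusted p = 0.0414).

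The call of Tgfb3 in C6 rested on single arrays, and was lost when either the first C6 slow array (adjusted p = 0.0945) or the first C6 fast array (0.0845) was left out. The difference of its changes passed in 6 of 16 alternatives, and ended in 7 of the 8 runs without 1 array (adjusted p from 0.0545 to 0.189). Its other probe set, U03491_g_at, which shares its source sequence, had 120.2 and 94.5 in C6 fast against 244 and 166 in C6 slow cells, and 215 and 213 in C6SPGFP fast against 191 and 191 in C6SPGFP slow cells. It missed the threshold in C6 (-0.87 ± 0.22, adjusted p = 0.0509; 0.0444 with the replicate number as a block). Both probe sets were higher in C6SPGFP fast than in C6 fast cells, by 1.0 ± 0.19 (adjusted p = 0.00885) and 0.95 ± 0.22 (adjusted p = 0.0199). These calls rested on single arrays as well. That of U03491_at was lost without C6SPGFP fast replicate 2 (adjusted p = 0.0748) or C6 fast replicate 1 (0.0503). That of U03491_g_at was lost without C6SPGFP fast replicate 1 (0.0959), C6SPGFP fast replicate 2 (0.0989) or C6 fast replicate 2 (0.0962).

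Tgfb1, a ligand much studied in glioma, had signals of 200.0 and 359.5 in C6 fast against 187 and 317 in C6 slow cells, and of 616 and 443 in C6SPGFP fast against 593 and 490.2 in C6SPGFP slow cells. Fast and slow arrays overlapped within each set. Every C6SPGFP array lay above every C6 array, a separation whose share over all probe sets was not computed. Even so, no comparison of Tgfb1 passed. C6SPGFP minus C6 was 0.94 ± 0.33 in fast (SE, adjusted p = 0.0941; 1.35 without C6 fast replicate 2, adjusted p = 0.0485) and 1.12 ± 0.33 in slow cells (adjusted p = 0.087). Fast minus slow was 0.14 ± 0.33 in C6 (95% confidence interval -0.61 to 0.88) and -0.05 ± 0.33 in C6SPGFP (-0.79 to 0.70).

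Tgfb2, a ligand of the same receptors, had signals of 23.3 and 38.3 in C6 fast against 50.8 and 49 in C6 slow cells. In C6SPGFP the signals were 47.6 and 42.3 in fast against 46 and 41.6 in slow cells. The C6 fast arrays were again the lowest, with a change of -0.61 ± 0.24 in C6 that did not pass (SE, adjusted p = 0.198). In C6SPGFP the change was 0.03 ± 0.24 (95% confidence interval -0.51 to 0.57).

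Tgfbr1, the signalling receptor for the TGF-betas, was low on all arrays. Probe set L26110_at had 2.79 and 6.4 in C6 fast against 15.5 and 8.52 in C6 slow cells, and 21 and 36.7 in C6SPGFP fast against 31.9 and 31.7 in C6SPGFP slow cells. Probe set S81584_s_at had 3.88 and 6.92 in C6 fast against 5.09 and 15.2 in C6 slow cells, and 14.1 and 26.7 in C6SPGFP fast against 35.9 and 26.3 in C6SPGFP slow cells. By L26110_at every C6SPGFP array lay above every C6 array, and how many of all probe sets separate so was not computed. Tgfbr1 did not pass between fast and slow cells, with -0.66 ± 0.31 in C6 (SE, adjusted p = 0.29) and -0.15 ± 0.31 in C6SPGFP (adjusted p = 0.923) on L26110_at.

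Between the sets, Tgfbr1 was higher in C6SPGFP fast than in C6 fast cells by 1.53 ± 0.31 on L26110_at (SE, adjusted p = 0.0114). The C6 fast signals lay below the pseudocount, and the change was 2.44 with a pseudocount of 1 and 0.72 with 32. The other probe set gave 1.06 ± 0.35 (adjusted p = 0.0843). The call on L26110_at ended without C6 fast replicate 1 (adjusted p = 0.0669) or C6SPGFP fast replicate 2 (0.0864). In slow cells the 2 probe sets gave 1.02 ± 0.31 (adjusted p = 0.0952) and 1.16 ± 0.35 (adjusted p = 0.101), short of the threshold.

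**Figure D2:**
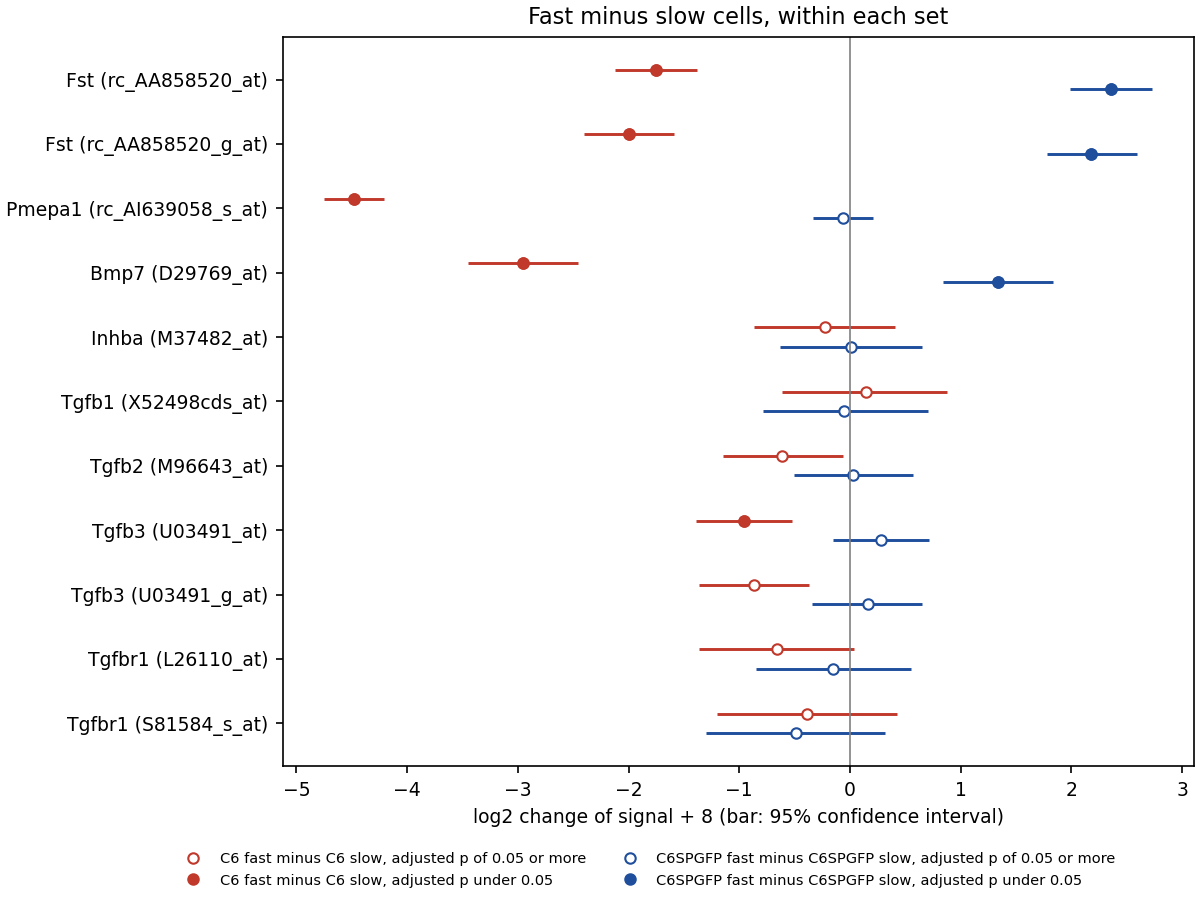
Log2 change of signal plus 8, fast minus slow, in C6 (red) and C6SPGFP (blue) for the 11 probe sets tested. Bars are 95% confidence intervals and filled points have an adjusted p under 0.05. The filled C6 points run from -4.48 for Pmepa1 to -0.96 for Tgfb3, and the filled C6SPGFP points, of Fst and Bmp7, lie above 0.

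Of the 9 genes, 8 were tested, on 11 probe sets. In C6, 5 of 11 probe sets passed (45.5%), for 4 genes, and all 5 were lower in fast cells, where 6.66% of all probe sets tested passed in either direction, 2.69% higher and 3.96% lower. The median change of the 11 was -0.87, against 0.013 over all probe sets. In C6SPGFP 3 passed, for Fst and Bmp7, and all were higher in fast cells, where 1.39% of all passed, 1.06% higher and 0.329% lower. The median of the 11 was 0.03, against -0.020 over all. The difference of the changes passed for 5 probe sets of 4 genes, each more positive in C6SPGFP, where 3.82% of all passed, 2.71% higher and 1.11% lower. Arrays of fast and slow cells did not overlap for 45.1% of all probe sets in C6 and 44.1% in C6SPGFP, so separation of 2 arrays from 2 is common. The genes were chosen with such results known, and some share a source sequence, so these shares describe the 9 genes and are no test of the pathway.

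Between the sets, 7 of 11 probe sets were higher in C6SPGFP fast than in C6 fast cells, for 5 genes, where 15.6% of all probe sets passed, 8.29% higher and 7.3% lower. In slow cells 3 passed, for Fst and Bmp7, each lower in C6SPGFP, where 6.34% of all passed, 3.29% higher and 3.05% lower. Arrays of the sets did not overlap for 55.6% of all probe sets in fast and 51.4% in slow cells. The count in fast cells was 4 without C6SPGFP fast replicate 2, the calls that ended being those of Tgfb3 and Tgfbr1.

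**Figure D3:**
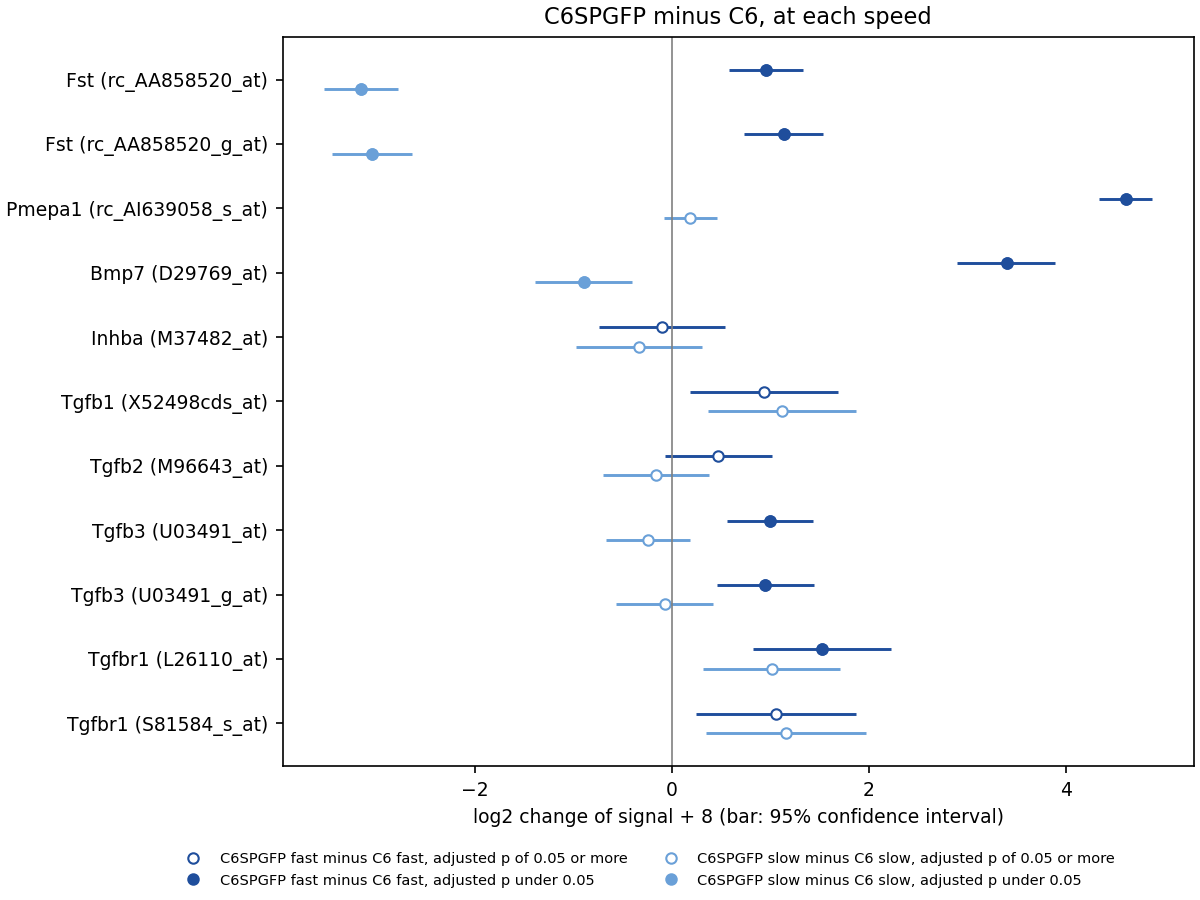
Log2 change of signal plus 8, C6SPGFP minus C6, in fast cells (dark) and slow cells (light) for the 11 probe sets tested, with 95% confidence intervals. Filled points have an adjusted p under 0.05. Pmepa1 is at 4.61 in fast cells and 0.19 in slow cells, and Fst is at 0.96 in fast cells and -3.15 in slow cells.

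Other genes of the pathway were counted from lists of 82 genes by role, of which 50 had a probe set of their own and 43 were tested, on 71 probe sets. In C6, 2 of these probe sets were higher and 7 lower in fast cells (12.7%, against 6.66% over all probe sets tested), with a median change of -0.11, against 0.013 over all. In C6SPGFP 3 were higher and none lower (4.23%, against 1.39% over all), with a median of -0.01, against -0.020 over all. The lists too were drawn up with earlier results known.

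Among other ligands, 1 of 10 probe sets passed in C6 (10%, against 6.66% of all probe sets tested). Gdf11, a ligand that signals like the activins, had signals of 28.3 and 39.2 in C6 fast, against 2.5 and 3.74 in C6 slow cells, and 3.1 and 2.06 in C6SPGFP fast, against 3.66 and 1.75 in C6SPGFP slow cells. The change in C6 was 1.90 ± 0.27 (SE, adjusted p = 0.00317), and no other listed ligand passed in any comparison. Gdf11 reached the mean signal of 8 only through the C6 fast arrays, so a probe set like it had to differ to be tested, and its signals elsewhere are not shown to exceed background. The receptors passed on none of 9 probe sets between fast and slow cells. Acvr2b, an activin receptor, was higher in C6SPGFP fast than in C6 fast cells by 1.34 ± 0.28 on 1 of its 2 probe sets (adjusted p = 0.0137). The other and brighter one gave -0.46 ± 0.24 (adjusted p = 0.247), the opposite sign.

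Of the extracellular binders and processing proteases, 4 of 11 probe sets fell in fast C6 cells (36.4%), for Bgn, Nbl1 and Furin. Over all probe sets tested, 3.96% were called lower there. Bgn, the proteoglycan biglycan, which binds TGF-beta and BMPs in the matrix, had 223 and 364 in C6 fast against 981 and 1585 in C6 slow cells, and 1478 and 1238 in C6SPGFP fast against 1627 and 1426 in C6SPGFP slow cells. Like Pmepa1, it was low in C6 fast cells alone, with changes of -2.10 ± 0.27 (SE, adjusted p = 0.00205) and -2.54 ± 0.41 (adjusted p = 0.00708) on its 2 probe sets. Nbl1, a secreted BMP antagonist, fell by 2.13 on the log2 scale (adjusted p = 0.00198), with signals of 44.9 and 22.6 in C6 fast against 156 and 182 in C6 slow cells. Furin, a protease that cleaves ligand precursors, changed by -0.78 (adjusted p = 0.0303) and -0.29 (adjusted p = 0.545) on its 2 probe sets.

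Beside follistatin, Ltbp1, which stores latent TGF-beta in the matrix, was the single gene of this list to rise in fast C6SPGFP cells. It rose by 0.99 ± 0.16 (SE, adjusted p = 0.0236). It had signals of 577 and 622 in C6SPGFP fast against 278 and 320.0 in C6SPGFP slow cells. Ltbp1 and the follistatin-like gene Fstl1 were lower in C6SPGFP slow than in C6 slow cells, each with a change of -0.99 (adjusted p = 0.0102 and 0.0157), Fstl1 on 1 of 2 probe sets. The intracellular mediators, among them Smad1, Smad2, Smad3, Smad4, Smad7 and Smad9, passed on none of 13 probe sets between fast and slow cells. In that list Fkbp1a alone, which binds the receptor kinases, was higher in C6SPGFP, on 1 of 4 probe sets at each speed. The change was 0.57 in fast cells on rc_AA875594_s_at (adjusted p = 0.0181). It was 0.51 in slow cells on another probe set, rc_AI228738_s_at (adjusted p = 0.04), so no probe set of Fkbp1a passed at both speeds.

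Genes often cited as targets of the pathway moved in different directions. In fast C6 cells Id3, an inhibitor of helix-loop-helix factors that BMPs induce, rose on 1 of 2 probe sets (0.87 ± 0.14, SE, adjusted p = 0.00677), with signals of 1822 and 1519 in C6 fast against 959 and 861 in C6 slow cells. Ccn1 (-1.49, adjusted p = 0.0303), Tsc22d1 (-0.77, adjusted p = 0.0454) and Col1a1 on 1 of 4 probe sets (-0.75, adjusted p = 0.0462) fell. In fast C6SPGFP cells Timp1, an inhibitor of metalloproteinases, rose on 1 of 2 probe sets (1.83 ± 0.25, adjusted p = 0.0108), and fibronectin (Fn1) on 1 of 5 (0.90 ± 0.12, adjusted p = 0.00996). The Timp1 call came from the probe set with the lower signals, 31.2 and 25.5 in C6SPGFP fast against 2.45 and 1.91 in C6SPGFP slow cells. That probe set too reached the mean signal of 8 only through the group where it is high. The brighter Timp1 probe set had 125 and 141 in C6SPGFP fast against 80.2 and 91.7 in C6SPGFP slow cells and did not pass (0.59, adjusted p = 0.386).

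Between the sets the target list had 10 of 28 probe sets called in fast cells (35.7%), 4 higher and 6 lower in C6SPGFP, and 8 lower and none higher in slow cells (28.6%). Over all probe sets tested the shares were 15.6% in fast cells, 8.29% higher and 7.3% lower, and 6.34% in slow cells, 3.29% higher and 3.05% lower. The 4 that were higher in C6SPGFP fast than in C6 fast cells were 2 probe sets of Col1a1, a fibrillar collagen (1.17, adjusted p = 0.00328, and 0.68, adjusted p = 0.034), and both of Timp1 (1.77, adjusted p = 0.00185, and 1.02, adjusted p = 0.0146). Id3, the cell cycle inhibitor Cdkn1a and the transcriptional coregulator Cited2 were lower in C6SPGFP at both speeds. Other listed targets made up the rest of the 8 calls in slow cells. Tsc22d1 had signals of 535 and 536 in C6SPGFP slow against 1496 and 997 in C6 slow cells. Fn1, on the probe set that rose in fast C6SPGFP cells, had 1088 and 985 in C6SPGFP slow against 1567 and 1693 in C6 slow cells. Id3 on its brighter probe set changed by -1.39 in fast (adjusted p = 0.000351) and -1.23 in slow cells (adjusted p = 0.00231). Cdkn1a changed by -1.98 in fast (adjusted p = 0.00163) and -1.82 in slow cells (adjusted p = 0.00669) on one probe set and by -1.57 and -1.27 on the other. Cited2 passed on 2 of 3 probe sets at each speed, with -2.73 and -1.22 in fast and -1.66 and -1.22 in slow cells. The values of -2.73 and -1.66 came from rc_AA900476_at, with 2.91 and 4.04 in C6SPGFP fast and 3.85 and 3.2 in C6SPGFP slow cells. That probe set reached the mean signal of 8 only through the C6 arrays, and its C6SPGFP signals are not shown to exceed background.

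**Figure D4:**
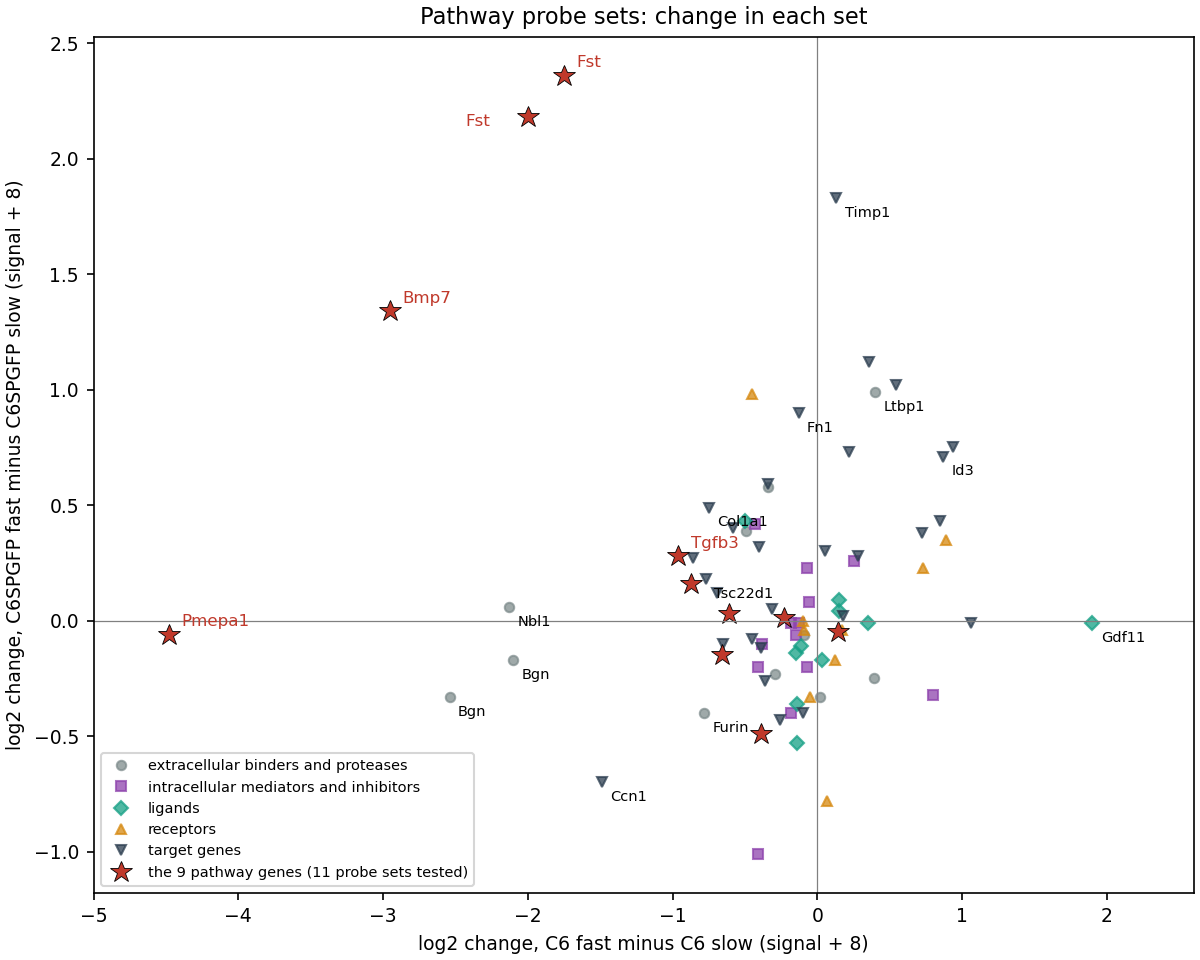
Log2 change of signal plus 8, fast minus slow, in C6 (horizontal axis) against C6SPGFP (vertical axis), for the 11 tested probe sets of the 9 genes (stars) and 71 of the other pathway genes by role. The 2 changes share no array, and names mark probe sets that passed in either set. Fst and Bmp7 lie at the upper left, with -1.75 and -2.95 in C6 and 2.36 and 1.34 in C6SPGFP, and Gdf11 lies alone at the right, at 1.90.

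Markers of glial identity moved with the C6 changes. Of 7 probe sets for Vim, S100b, Nes, Cnp and Sox10, 5 were lower and none higher in C6 fast than in C6 slow cells. Of all probe sets tested, 3.96% were called lower and 2.69% higher there. In C6SPGFP 1 of the 7 was lower in fast than in slow cells, where 0.329% of all were lower. The summed signal of the list was 2939.7 to 3159.5 in C6 fast against 4895 to 5060.5 in C6 slow cells. It was 6782 to 6862 in C6SPGFP fast against 7123 to 7263 in C6SPGFP slow cells. Vim made up most of the C6 sums, with means of 2658 in C6 fast and 2881 in C6 slow cells. Sox10, a transcription factor of oligodendroglial and Schwann cells, had 2.22 and 0.9 in C6 fast against 240.5 and 367 in C6 slow cells. Of other cell types, the microglial and haematopoietic list summed to 105 to 137 in C6 fast against 61.4 to 75 in C6 slow cells, with Itgam and Cd74 under the filter. Cd37 alone was higher (1.41, adjusted p = 0.0271), 1 of 4 probe sets tested, where 2.69% of all were higher. The endothelial and mural list summed to 210.0 to 253 in C6 fast against 248 to 285 in C6 slow cells, with Kdr under the filter and no call. The fibroblast list summed to 156 to 165 in C6 fast against 229.8 to 236 in C6 slow cells. In C6SPGFP it summed to 328 to 355 in fast against 224 to 225 in slow cells. Thy1 was under the filter, and Col1a1 is shared with the target list. Of the 8 fibroblast probe sets tested, 1 was lower in fast C6 cells (3.96% of all) and 1 higher in fast C6SPGFP cells (1.06% of all). Between the fast cells 4 of the 8 were higher in C6SPGFP, where 8.29% of all were higher. The part of these markers in the results on the 9 genes was not tested.

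The genes whose log2 signals followed a pathway gene most closely over the 8 arrays were found by Pearson's r, as a description with no test, since the 8 arrays form 4 groups. For Pmepa1 they were the adrenergic receptor gene Adrb1 (r = 0.995), Tubb2b (0.993) and Gas6 (0.993), each low in C6 fast cells alone. Gas6, a ligand of receptor tyrosine kinases, had 6.65 and 7.83 in C6 fast against 97.8 and 99.3 in C6 slow cells, and 119 and 137 in C6SPGFP fast against 138 and 153 in C6SPGFP slow cells. For Bmp7 they were Sh2b3 (0.988), Lcat (0.981) and Mmp16 (0.981). Mmp16, a membrane-bound metalloproteinase, had 0.912 and 0.456 in C6 fast against 47.4 and 39.7 in C6 slow cells, and 64.6 and 87.8 in C6SPGFP fast against 23.3 and 25.2 in C6SPGFP slow cells, the same order of groups as Bmp7. For Fst they were Psme2 (0.962), Cnrip1 (0.956) and Hpcal1 (0.956), whose changes were smaller than those of Fst. Tgfb3 was followed by Tnnt2 (0.984), Wdr31 (0.969) and Mdh2 (0.964), and Tgfbr1 by B2m (0.981), Cd14 (0.980) and Egr2 (0.973). Among the 9 genes themselves, r was 0.92 between Pmepa1 and Bmp7 and 0.13 between Pmepa1 and Fst (rc_AA858520_at). It was also 0.92 between Pmepa1 and each probe set of Tgfb3, and 0.93 and 0.88 between Bmp7 and those of Tgfb3.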

How the data were processed

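RNA of C6 rat glioma cells was measured on 8 arrays, 2 in each of 4 groups taken from the titles. The deposited files hold 1 intensity on a linear scale per probe set and array. Which software computed it is not stated, and from the values the authors' scaling was per array. As 1 array stood on another scale, signals were quantile normalised between arrays, on all 8799 probe sets, of which 59 were controls. Values were log2 of signal plus 8. Probe sets other than controls with a mean signal of at least 8 were tested (6684) with limma 3.58.1 in R 4.3.3 (lmFit, then eBayes with a trend), with 4 group means over 8 arrays, 4 residual degrees of freedom, two-sided, and Benjamini-Hochberg adjustment at 0.05 within a comparison. The fit was tested on simulated data. Symbols were read from the platform annotation (1 symbol for 7018 probe sets, several for 308, none for 1473), updated by Entrez identifier through RefSeq's GRCr8 table. The 9 genes, the gene lists and the rules were chosen with earlier results of these data known. Named beside the 9 genes were listed pathway genes with a call in any comparison, and for each gene with a call the 3 genes most like it. The alternatives were other scalings, pseudocounts of 1 and 32, no filter or one at the 50th percentile, only the groups compared, no trend, a replicate block and each array left out.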

Additional observations from a re-analysis of the deposited data

Results flagged for a closer look

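The change from slow to fast cells differed between C6SPGFP and C6 for 5 probe sets of 4 genes, by limma's test of the difference itself, C6SPGFP minus C6. The differences on the log2 scale were 4.11 and 4.18 for the 2 probe sets of Fst (adjusted p = 5.66e-05 and 8.14e-05), 4.42 for Pmepa1 (3.76e-06) and 4.29 for Bmp7 (0.000167). For Tgfb3 the difference was 1.24 on 1 of its probe sets (0.0414) and 1.03 on the other (0.137). Over all probe sets tested, 3.82% passed this test. For Fst and Bmp7 every fast array lay below every slow array in C6 and above every slow array in C6SPGFP. Fast and slow arrays did not overlap, in either direction, for 45.1% of all probe sets tested in C6 and 44.1% in C6SPGFP. The share that separates in opposite directions in the sets was not computed. For Pmepa1 and Tgfb3 the change passed in C6 and not in C6SPGFP.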

How the results depend on the processing

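Over 17 alternatives, 55 log2 changes of the 11 probe sets gave 914 values, of which 822 kept their direction and their side of the threshold, 53 lost and 6 gained a call, and 33 changed sign. None of the sign changes was in a change that had passed. The calls of Fst in all 5 comparisons, and of Pmepa1 and Bmp7 in C6, on the difference and between the fast cells, held under every alternative other than the deposited scaling.

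With the deposited scaling, which leaves C6SPGFP fast replicate 1 at its own scale and moves the median of all changes to 1.04 in C6SPGFP, 1.08 on the difference and 1.11 between the fast cells, the number of called probe sets of the 9 genes was 1 in C6, 0 in C6SPGFP, 0 between the slow and 2 between the fast cells, against 5, 3, 3 and 7 (4 against 5 on the difference). By limma the count of all probe sets called was then 20, 15, 24, 2 and 182 in C6, in C6SPGFP, on the difference, and between slow and fast cells, against 445, 93, 255, 424 and 1042 after quantile normalisation. After quantile normalisation an unadjusted p under 0.05 was reached by 648 of all probe sets tested in C6SPGFP and by 1401 between slow cells. The calls in C6SPGFP were 100% higher, against 76.3%, 95.8% against 71% on the difference and 94% against 53.2% between fast cells. Changes of sign there were at 1.01 for Pmepa1, 1.11 for Tgfb1 and 0.83 and 0.44 for the probe sets of Tgfbr1 in C6SPGFP. On the difference they were at 1.03 for Tgfb1 and 0.80 for Tgfbr1 (S81584_s_at). Between slow cells Pmepa1 was at -0.15, and between fast cells Inhba was at 1.17. All these values are set against those shifted medians. With a common trimmed mean in place of quantiles, signs changed to -0.11 for Pmepa1 and 0.02 for Tgfb3 (U03491_g_at) between slow and 0.11 for Inhba between fast cells. With a pseudocount of 1 the sign changed to 0.04 for Tgfbr1 (S81584_s_at) on the difference.

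Leaving out 1 array at a time gave 4 to 6 called probe sets of the 9 genes in C6, 2 to 3 in C6SPGFP, 4 to 5 on the difference, 2 between slow and 4 to 7 between fast cells. Over all probe sets the counts were 286 to 445, 21 to 107, 122 to 273, 95 to 422 and 517 to 1125, and 230 in C6 and 270 between slow cells with only the groups compared in the fit. Without 1 array, some changes that did not pass ranged over 0. They were those of Tgfb1 in C6 (-0.27 to 0.55), in C6SPGFP (-0.28 to 0.19) and on the difference (-0.59 to 0.23). For Tgfbr1 they were S81584_s_at in C6 (-0.80 to 0.03) and on the difference (-0.51 to 0.31), and L26110_at in C6SPGFP (-0.46 to 0.17). Inhba did so in C6SPGFP (-0.28 to 0.30), on the difference (-0.05 to 0.52) and between fast cells (-0.35 to 0.16). So did Tgfb2 in C6SPGFP (-0.04 to 0.10) and Tgfb3 between slow cells on U03491_g_at (-0.34 to 0.19).

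The labels share replicate numbers across groups but do not say that they pair the arrays. Deviations of same-numbered arrays from their group means correlated at 0.266 between C6 fast and slow and at 0.104 between C6SPGFP fast and slow, and between -0.127 and 0.028 otherwise. With a replicate block the counts of the 9 genes were 6, 3, 4, 2 and 7. Tgfb3 gained a call in C6 on U03491_g_at (-0.87, adjusted p = 0.0444). Tgfb3 on the difference lost its call on the other probe set, U03491_at (1.24, 0.0621), and so did Bmp7 between slow cells (-0.89, 0.0662). The causes of these shifts were not tested. Signals of a few units, as of Bmp7, Tgfbr1 and Bmp4 in C6 fast cells, limit what can be said of the size of a change.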

Other observations

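Bmp7 and Pmepa1 both fell in fast C6 cells and had an r of 0.92 with each other over the 8 arrays. They lie on one chromosome in RefSeq's rat annotation of GRCr8, with 13 annotated genes between them. This was noticed after their values were seen and has no test. The r is not particular to this pair. Tgfb3, on another chromosome, had an r of 0.92 with Pmepa1 on each of its probe sets, and of 0.93 and 0.88 with Bmp7. Of the 13 genes between Bmp7 and Pmepa1, 6 are protein-coding (Spo11, Rae1, Rbm38, Ctcfl1, Pck1 and Zbp1), and Pck1 alone had a probe set. Pck1, an enzyme of gluconeogenesis, had signals of 3.51 and 1.54 in C6 fast against 3.71 and 3.74 in C6 slow cells, and of 3.15 and 3.45 in C6SPGFP fast against 3.1 and 3.35 in C6SPGFP slow cells, and was not tested. The nearest tested genes outside the pair were Mc3r on one side and Gnas on the other. Mc3r changed by 0.08 in C6 (limma adjusted p = 0.892), and the 4 probe sets of Gnas changed by -0.17, -0.07, 0.21 and 0.30 (adjusted p from 0.127 to 0.867). In C6SPGFP the pair did not move together, with 1.34 for Bmp7 (adjusted p = 0.0236) and -0.06 for Pmepa1 (adjusted p = 0.915).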
